A study of Rattus norvegicus with 15 samples.

Results

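One day after the last cocaine session, rats that had self-administered the drug and were not tested were set against rats that had self-administered saline, across every gene that the platform annotation paired with a single symbol. That came to 14497 genes, of 28826 probe sets in the series, and 11778 of them passed the filter on dim genes and were tested. The 1W group (3 arrays) held male Sprague-Dawley rats of 250 to 350 g that pressed a lever for cocaine, 0.75 mg/kg per infusion with a light cue, in 6 h sessions on 10 days, followed by 1 day of forced abstinence. The Sal group (3 arrays) held rats of the same strain, sex and weight that self-administered saline under those conditions. The labels do not give the interval between the last saline session and tissue collection, so the number of days since the last session may differ between the groups. All rats of both groups carried a jugular catheter and a skull mount placed under xylazine and ketamine. The other arrays of the series, 3 per group, were from cocaine rats given an extinction test at 1 day (1C), left for 30 days (30W) or tested at 30 days (30C), and they entered the fit to estimate the spread. Whether an array held RNA of 1 rat or of a pool is not stated, so every p-value measures only the spread between these samples, and some of that spread may be technical.

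The nucleus accumbens is the ventral part of the striatum. Most of its neurons are GABAergic medium spiny neurons, which receive dopamine from the midbrain and glutamate from cortex, hippocampus and amygdala, and which carry either D1 receptors (with dynorphin and substance P) or D2 receptors (with enkephalin). Cocaine blocks the dopamine transporter. Work on this region after cocaine has centred on immediate early genes, AMPA receptor subunits, neuropeptides and chromatin enzymes, while capillaries, pericytes, microglia, oligodendrocytes and residual blood also give RNA to a piece of tissue. In bulk RNA of this kind, fewer cells of a type and less RNA per cell cannot be told apart.

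Levels are RMA log2 intensities, so a difference of 1 is a doubling, and a level can be compared between arrays for a gene but not between genes. Markers of medium spiny neurons were present, as the labelled tissue would have them: all 26 passed the filter, with a median level of 10.56. Pairs of 1W arrays correlated at 0.9949 to 0.9955, pairs of Sal arrays at 0.9931 to 0.9955, and a 1W with a Sal array at 0.9935 to 0.996. The Sal arrays differed among themselves in markers of cortical projection neurons. Slc17a7, which loads glutamate into the vesicles of cortical neurons, had 11.28, 11.19 and 9.83 in 1W, against 7.16, 11.52 and 12.02 in Sal. The dim end of the arrays also differed by group: the 25th percentile of all probe sets lay between 5.48 and 5.50 in 1W and between 5.51 and 5.57 in Sal, without overlap, and the part of this in the results below was not tested.

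No gene passed the test. Of the 11778 genes tested with limma, 0 (0%) reached an adjusted p under 0.05, and the smallest adjusted p was 0.295, for the olfactory receptor gene Or2ak4c. An unadjusted p under 0.05 was reached by 573 genes (4.87%), where 5% of the genes tested would be 589. Among them 327 genes (2.78% of those tested) were higher and 246 (2.09%) lower in 1W. All 3 1W arrays lay above all 3 Sal arrays for 570 genes (4.84%) and below them for 383 (3.25%). Small positive differences prevailed, with 6796 genes (57.7%) above and 4982 (42.3%) below 0 and a median difference of 0.01 over all tested genes. The median standard error was 0.07. For a single gene the exact permutation test of 3 arrays against 3 allows only 20 splits and no two-sided p below 0.1. The values that follow therefore describe how the 6 arrays were ordered. Genes are named by their rank in p, in size of difference or within a gene list, and none is a call.

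**Figure D1:**
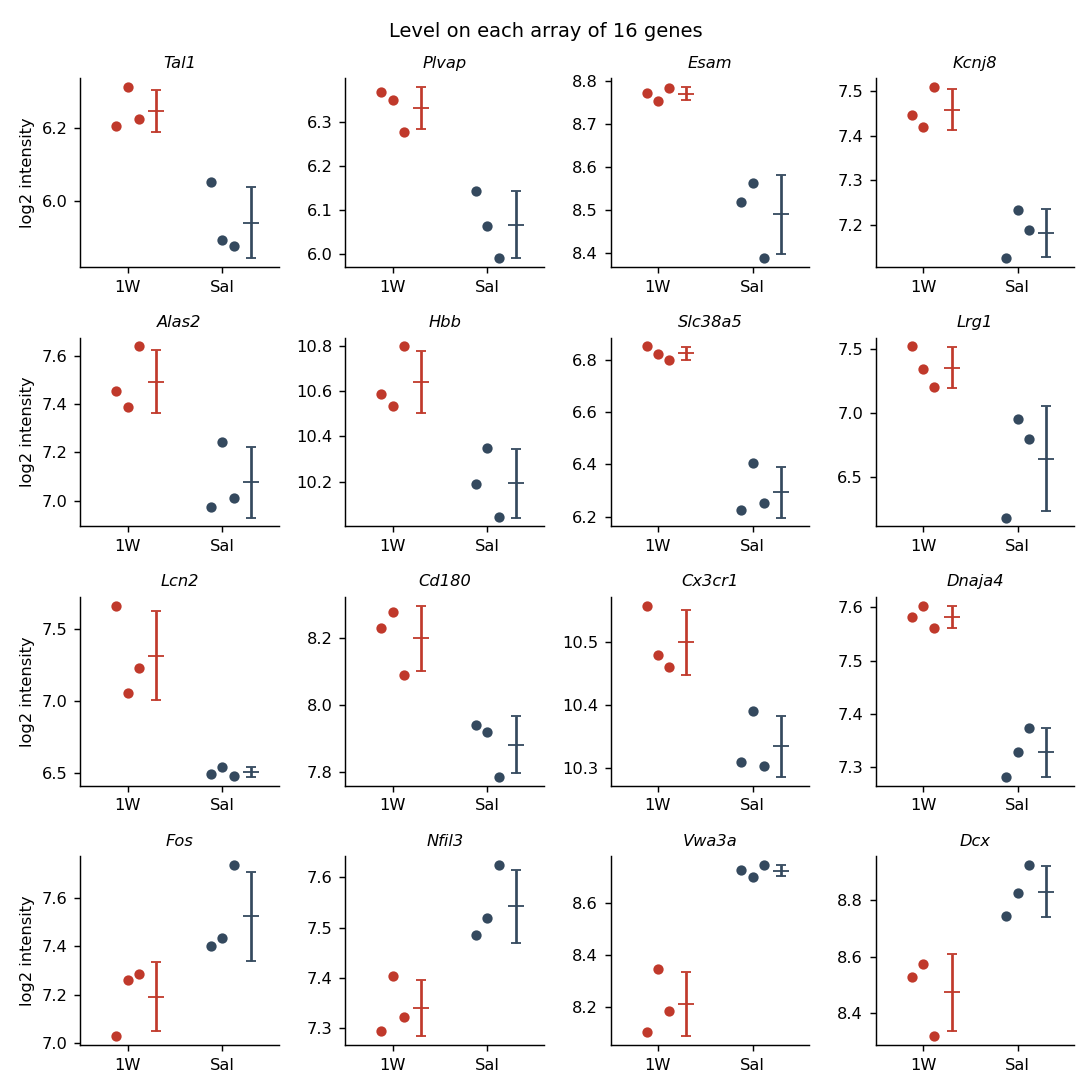
Level on each array (RMA log2 intensity, y axis, with its own range in each panel) of 16 genes in the 3 1W arrays (left, red) and the 3 Sal arrays (right, grey), with the mean and SD beside the points. For each of the 16 genes the 2 sets of arrays did not overlap, and for Lcn2 the 1W arrays spread from 7.06 to 7.66 while the Sal arrays lay between 6.48 and 6.54.

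Among the 36 gene lists, those of blood vessel walls had the largest shares of members without overlap. Of 28 endothelial markers, 26 were higher and 2 lower in 1W, and 13 of them (46.4%, against 4.84% of all tested genes) had every 1W array above every Sal array. None passed the adjusted test, and 6 (21.4%, against 2.78%) had an unadjusted p under 0.05. The median difference over the markers was 0.11, against 0.01 over all tested genes. Esam, an adhesion molecule of endothelial junctions, had 8.77, 8.75 and 8.79 in 1W, against 8.52, 8.56 and 8.39 in Sal. Its 1W arrays lay close together and all above the Sal arrays, a difference of 0.28 (SE 0.08, limma adjusted p = 0.825). Tek, the angiopoietin receptor, had 7.76, 7.63 and 7.62 in 1W, against 7.54, 7.53 and 7.30 in Sal, a difference of 0.21 (SE 0.08). The VEGF receptor Flt1 had 9.40, 9.40 and 9.42 in 1W, against 9.22, 9.27 and 9.19 in Sal, and the other VEGF receptor, Kdr, was higher by 0.13 (SE 0.06). For Flt1 and Kdr, too, the arrays did not overlap. Egfl7, a secreted endothelial factor, was higher by 0.20 (SE 0.09), but its lowest 1W array at 7.59 lay below 2 Sal arrays. The tight junction gene Cldn5 differed by 0.08 (95% interval -0.11 to 0.27).

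Mural cells, the pericytes and smooth muscle around those vessels, gave the same order. All 15 tested markers, of 16 measured, were higher in 1W. In 8 of them (53.3%, against 4.84% of all tested genes) the arrays did not overlap, and 4 (26.7%, against 2.78%) had an unadjusted p under 0.05. The median difference was 0.09. Kcnj8, the pore of a pericyte potassium channel gated by ATP, had 7.45, 7.42 and 7.51 in 1W, against 7.13, 7.23 and 7.19 in Sal. The arrays were well apart, with a difference of 0.27 (SE 0.08, limma adjusted p = 0.843). Rgs5, a G protein signalling regulator of pericytes, was higher by 0.12 (SE 0.05). The smooth muscle genes Tagln and Myl9, which code for an actin-binding protein and a myosin light chain, were higher by 0.30 (SE 0.13) and 0.18 (SE 0.08). None of Rgs5, Tagln and Myl9 overlapped between the groups.

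The summed level of these markers separated the groups. On a score that centres each marker on its average across the 15 arrays and then averages the markers, the endothelial list had 0.09, 0.04 and 0.08 in 1W, against -0.03, 0.01 and -0.11 in Sal. The pericyte and smooth muscle list had 0.08, 0.06 and 0.09 in 1W, against -0.08, -0.02 and -0.06 in Sal. Sal 3 was the lowest array for the endothelial score. Without Sal 3 the number of endothelial markers at unadjusted p under 0.05 was 1 in place of 6, and that of mural markers 1 in place of 4. Without 1W 3 both counts were 2, and without Sal 1 they were 4 and 2, while the median endothelial difference lay between 0.08 and 0.14 whichever array was left out. Meningeal and fibroblast markers, which would come with surface tissue, had a median difference of 0.03 (-0.02 to 0.06 when 1 array was left out), with 11 of 17 tested members higher. In 3 (17.6%, against 4.84% of all tested genes) every 1W array lay above every Sal array, and in 1 (5.88%, against 3.25%) below. Among these markers Mgp, a matrix protein that also occurs in vessel walls, was higher by 0.21 (SE 0.07). The part of surface tissue in the vessel values was not tested.

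**Figure D2:**
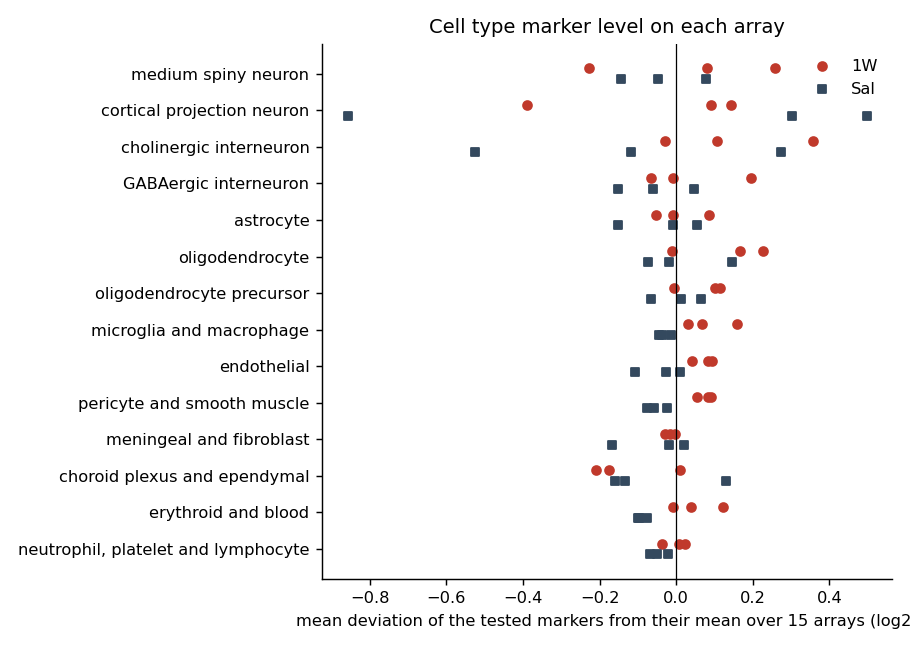
Mean deviation of the tested markers of 14 marker lists from their own means over 15 arrays (log2, x axis) on each 1W array (red circles, upper) and each Sal array (grey squares, lower). The endothelial, pericyte and smooth muscle, microglial and erythroid rows have no overlap between the groups, while the cortical row is widest in Sal, from -0.86 to 0.50.

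The 15 higher genes with the smallest p among those without overlap were of several kinds. Plvap, which forms the diaphragms of fenestrated endothelium, had 6.37, 6.35 and 6.28 in 1W, against 6.14, 6.06 and 5.99 in Sal. That is a difference of 0.27 (SE 0.05, limma adjusted p = 0.451). Scarf1, a scavenger receptor described on endothelial cells, was higher by 0.26 (SE 0.06), and Nid2, a nidogen of basement membranes, by 0.27 (SE 0.07). Tbx2, a T-box transcription factor, had 7.48, 7.41 and 7.50 in 1W, against 7.13, 7.15 and 7.18 in Sal, a difference of 0.31 (SE 0.08). Wfdc1, which codes for a secreted protein with a protease inhibitor domain, was higher by 0.28 (SE 0.06), the glutathione peroxidase gene Gpx2 by 0.30 (SE 0.08) and Ffar4, a receptor for long-chain fatty acids, by 0.27 (SE 0.07). Ankrd9, Spata32 and Bccip were higher by 0.26 (SE 0.07), 0.19 (SE 0.05) and 0.19 (SE 0.05). Some of these higher genes were dim too. Ffar4 had 5.91, 6.03 and 5.73 in 1W, against 5.63, 5.70 and 5.54 in Sal, where the filter lay between 5.77 and 5.90. The Sal means of Tal1, Gpx2 and Plvap were 5.94, 6.00 and 6.07. Those of Spata32, Slc38a5, Pla2g2a and Ankrd9 were 6.22, 6.29, 6.34 and 6.40, and that of Bccip was 7.04. The other genes of the 15 (Tal1, Dnaja4, Cd180, Pla2g2a and Slc38a5) are described with their groups, and the place of each is a rank.

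Genes of circulating blood were the next group. Of 16 tested erythroid markers, of 21 measured, 12 were higher and 4 lower in 1W. In 6 (37.5%, against 2.78% of all tested genes) the unadjusted p was under 0.05, and in 5 (31.2%, against 4.84%) every 1W array lay above every Sal array. The median difference was 0.08. Alas2, the enzyme that starts haem synthesis in red cell precursors, had 7.45, 7.39 and 7.64 in 1W, against 6.97, 7.24 and 7.01 in Sal. Every 1W array was above every Sal array, with a difference of 0.42 (SE 0.12, limma adjusted p = 0.825), or 1.34-fold. The beta globin gene Hbb had 10.59, 10.54 and 10.80 in 1W, against 10.19, 10.35 and 10.04 in Sal, a difference of 0.45 (SE 0.15). Hbb-b1 and the alpha globin gene Hba-a3 were higher by 0.44 (SE 0.18) and 0.26 (SE 0.10). The globin genes have near-identical copies whose signals a probe set may share, so these 3 are not separate measurements. All 3 enter both counts above, which are larger for that reason. Slc4a1, the anion exchanger of the red cell membrane, was higher by 0.27 (SE 0.10), with overlap between 6.29 in 1W and 6.32 in Sal.

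Tal1, a transcription factor of blood cell and endothelial precursors, had the smallest p of any gene that was higher. It had 6.21, 6.31 and 6.22 in 1W, against 6.05, 5.89 and 5.88 in Sal, a difference of 0.31 (SE 0.06, limma adjusted p = 0.451). These levels were dim, near the filter between 5.77 and 5.90. Not every blood gene followed: Epor, the erythropoietin receptor, differed by -0.06 (95% interval -0.23 to 0.11). Of 29 genes of haem synthesis and iron handling, 19 were higher and 10 lower. The 2 with an unadjusted p under 0.05 (6.9%, against 2.78% of all tested genes) were Alas2 and the ferroxidase gene Heph, at 0.30 (SE 0.12). Among 13 tested markers of neutrophils, platelets and lymphocytes, of 22 measured, 7 were higher and 6 lower. Without Sal 3 the erythroid count at unadjusted p under 0.05 was 3 in place of 6, and 4 without Sal 1 or without 1W 3. The level of these markers on each array beside the vessel genes is in the plot of marker deviations, and how far retained blood enters any vessel gene was not tested.

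The starts of the haem enzyme gene Alas2, a beta globin gene and an alpha globin gene are shown because red cell promoters are known for a small set of motifs: GATA sites bound by GATA1, CACCC boxes, CCAAT boxes and TATA boxes. All 3 genes matched RefSeq, build GRCr8, and each window runs from 250 bases before to 50 bases after the annotated start, 5′ to 3′ along the gene. Capitals mark these words on either strand: AGATAA as well as TGATAA for GATA sites, the letters CACCC for that box, the letters CCAAT for the next, and TATAAA for the TATA box. Alas2 lies at chrX:22895200-22895499 on the plus strand, Hbb at chr1:167663672-167663971 on the minus strand, and Hba-a3 at chr10:15816894-15817193 on the minus strand.
Alas2: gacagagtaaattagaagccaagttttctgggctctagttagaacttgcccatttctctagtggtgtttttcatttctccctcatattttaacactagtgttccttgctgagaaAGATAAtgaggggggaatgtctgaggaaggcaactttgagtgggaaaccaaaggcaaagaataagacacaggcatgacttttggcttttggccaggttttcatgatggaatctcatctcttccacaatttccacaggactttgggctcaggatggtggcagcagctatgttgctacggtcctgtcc
Hbb: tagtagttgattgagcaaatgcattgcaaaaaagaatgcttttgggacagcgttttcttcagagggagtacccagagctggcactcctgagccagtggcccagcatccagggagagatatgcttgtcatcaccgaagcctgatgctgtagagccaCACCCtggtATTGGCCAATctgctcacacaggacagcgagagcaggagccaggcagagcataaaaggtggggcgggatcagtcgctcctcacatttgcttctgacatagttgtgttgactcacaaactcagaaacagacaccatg
Hba-a3: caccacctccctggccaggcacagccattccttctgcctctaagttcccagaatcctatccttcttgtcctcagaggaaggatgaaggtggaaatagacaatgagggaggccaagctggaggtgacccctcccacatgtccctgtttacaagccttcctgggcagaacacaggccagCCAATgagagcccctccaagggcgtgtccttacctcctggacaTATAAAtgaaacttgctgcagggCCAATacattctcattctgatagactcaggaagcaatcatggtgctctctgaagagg
The Alas2 window held 1 GATA word, at -136 from the start. The Hbb window held 1 CACCC, at -95, followed by 2 CCAAT words on opposite strands, without a base between them. The Hba-a3 window held 2 CCAAT words and 1 TATAAA, at -30. Over the 9724 promoters of tested genes in the table, 10.7% held a GATA word, 62.8% a CACCC, 37.8% a CCAAT and 7.89% a TATAAA. None of these words overlapped in the windows shown. A match describes the letters only. Whether the annotated start of each gene is the one used in red cell precursors was not tested, so a window need not hold the red cell promoter.

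Microglia, the resident macrophages of the brain, came next in size. Of 33 microglial and macrophage markers, 31 were higher and 2 lower in 1W, 6 (18.2%, against 2.78% of all tested genes) had an unadjusted p under 0.05 and were higher, and in 7 (21.2%, against 4.84%) every 1W array lay above every Sal array. The median difference was 0.11. Cd180, a Toll-like receptor relative, had 8.23, 8.28 and 8.09 in 1W, against 7.94, 7.92 and 7.79 in Sal, a difference of 0.32 (SE 0.08, limma adjusted p = 0.558). Cx3cr1, the fractalkine receptor that marks resident microglia, had 10.56, 10.48 and 10.46 in 1W, against 10.31, 10.39 and 10.30 in Sal, a difference of 0.16 (SE 0.05). The 1W arrays of both genes lay above all the Sal arrays. Cd53, a tetraspanin of white cells, was higher by 0.27 (SE 0.08), Gpr34, a lysophosphatidylserine receptor, by 0.24 (SE 0.08), P2ry13, an ADP receptor, by 0.19 (SE 0.08) and the complement gene C1qb by 0.23 (SE 0.10). The score of the list was 0.16, 0.07 and 0.03 in 1W, against -0.04, -0.01 and -0.04 in Sal. Without 1W 3 the number of markers at unadjusted p under 0.05 was 11 in place of 6. The median difference fell to 0.09 without Sal 1 or without Sal 3, and lay between 0.07 and 0.15 whichever array was left out.

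Among higher genes without overlap, the largest differences belonged to genes of the acute phase response and of transport. Lcn2, a secreted lipocalin that binds bacterial siderophores, had 7.66, 7.06 and 7.23 in 1W, against 6.50, 6.54 and 6.48 in Sal. The difference was 0.81, or 1.75-fold, with an SE of 0.47 (limma adjusted p = 0.999). The spread in that SE comes from all 5 groups, and 1 array of 1C was at 8.94. Lrg1, an acute phase glycoprotein made in liver and by endothelium, had 7.52, 7.34 and 7.20 in 1W, against 6.18, 6.95 and 6.79 in Sal. Sal 1 was far below the other arrays there, and the difference was 0.71 (SE 0.26, limma adjusted p = 0.979). Slc38a5, a glutamine transporter, had 6.85, 6.82 and 6.80 in 1W, against 6.22, 6.40 and 6.25 in Sal, a difference of 0.53 (SE 0.15, limma adjusted p = 0.765). Its 1W arrays lay close together, and the highest Sal array was far below them. The next 4 genes completed the 10 largest differences without overlap, together with the blood genes. Tgm2, transglutaminase 2, was higher by 0.39 (SE 0.22), Slco2a1, the prostaglandin transporter, by 0.38 (SE 0.22), Acer2, an alkaline ceramidase, by 0.36 (SE 0.16) and Pla2g2a, a secreted phospholipase, by 0.35 (SE 0.09).

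Lists of inflammation genes leaned less to one side. Of 37 tested cytokine, chemokine and acute inflammation genes, of 50 measured, 25 were higher and 12 lower. The alarmin Il33, at 0.18 (SE 0.07), was the one with an unadjusted p under 0.05 (2.7%, against 2.78% of all tested genes). In 5 (13.5%, against 4.84%) every 1W array lay above every Sal array. Interferon and antigen presentation genes had 19 higher and 20 lower of 39 tested. RT1-CE13, an MHC class I gene, at -0.20 (SE 0.06), was the one with an unadjusted p under 0.05 (2.56%, against 2.09% lower over all tested genes). Of 31 glucocorticoid-responsive genes 20 were higher, with a median difference of 0.02. In 4 (12.9%, against 4.84% of all tested genes) every 1W array lay above every Sal array, and in 1 (3.23%, against 3.25%) below. Map3k6, at 0.22 (SE 0.09), was the one with an unadjusted p under 0.05 (3.23%, against 2.78%). Fkbp5, a co-chaperone that the hormone induces, differed by 0.08 (95% interval -0.12 to 0.28). Among 41 heat shock and chaperone genes, 20 were higher and 21 lower. Dnaja4, a J-domain co-chaperone, stood out from them with 7.58, 7.60 and 7.56 in 1W, against 7.28, 7.33 and 7.37 in Sal, a difference of 0.26 (SE 0.06, limma adjusted p = 0.558).

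**Figure D3:**
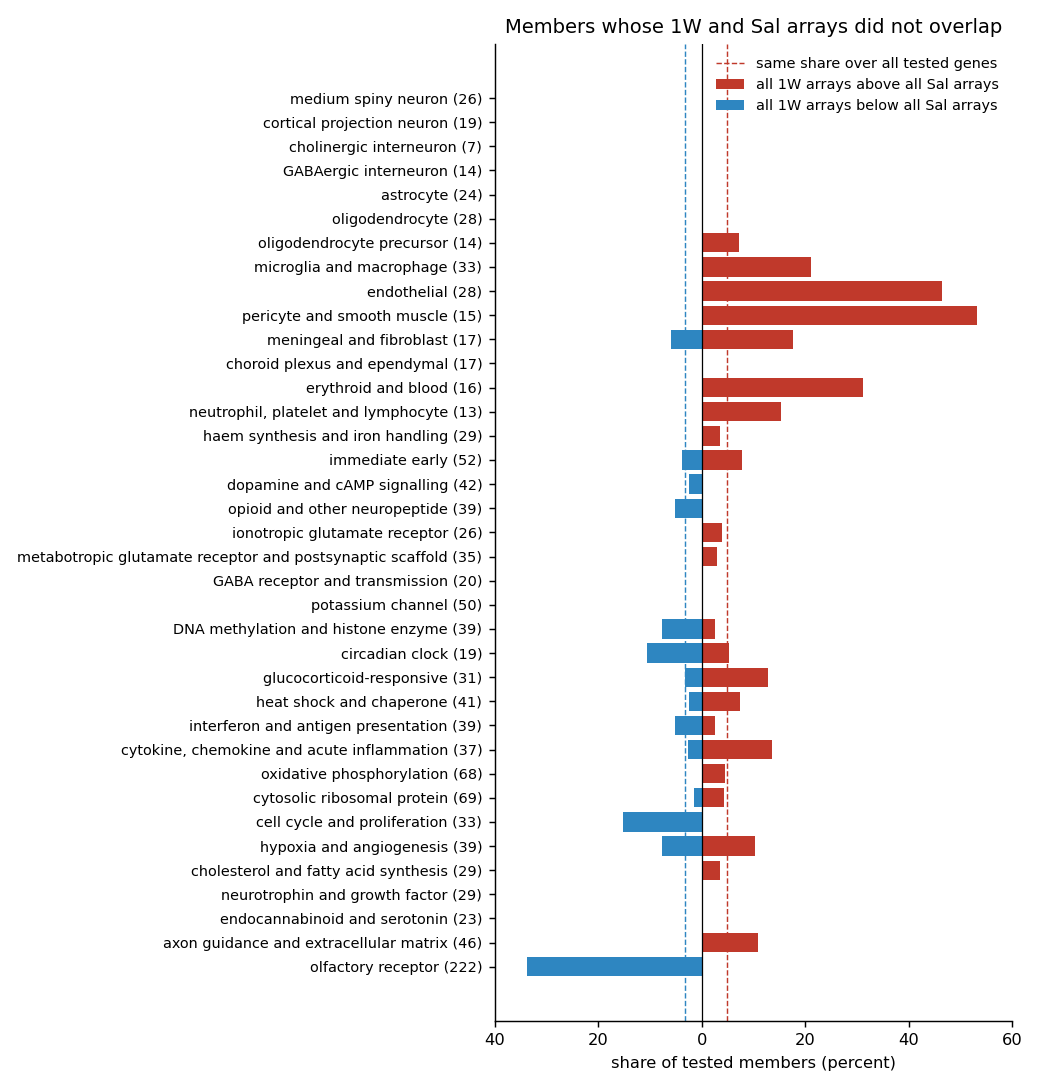
Share of the tested members of each gene list (number tested in brackets) whose 3 1W arrays all lay above (red, right) or all below (blue, left) the 3 Sal arrays, in percent, with dashed lines at the shares over all tested genes, 4.84% above and 3.25% below. The mural (53.3%) and endothelial (46.4%) bars are the longest to the right, and the olfactory receptor bar (33.8%), a group chosen after its values were seen, is the longest to the left.

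The genes with the smallest p among those lower in 1W were of another kind: 12 of the first 15 were olfactory receptors, a large family of odorant receptors of the nasal epithelium. The family was taken as a group only after these values were seen. Of 1104 receptor genes measured, 222 passed the filter and were tested, 882 did not, and 208 of the 222 were lower and 14 higher. An unadjusted p under 0.05 was reached by 84 of the 222 (37.8%, against 2.09% lower over all tested genes), all of them lower. These 84 make up 34.1% of the 246 genes lower at that threshold. In 75 (33.8%, against 3.25% of all tested genes) every 1W array lay below every Sal array. The median difference was -0.16, and it was -0.12 over the 882 genes that were too dim to be tested. Or2ak4c had 6.75, 6.56 and 6.54 in 1W, against 7.02, 6.93 and 7.07 in Sal, a difference of -0.39 (SE 0.06, limma adjusted p = 0.295). Or8c19 had 5.82, 5.95 and 5.96 in 1W, against 6.66, 6.35 and 6.43 in Sal, a difference of -0.57 (SE 0.10). Or5p60b had the largest difference among these genes, -0.60 (SE 0.14), or 0.660-fold.

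The lower genes sat at the dim end. The median level of the tested receptors was 6.09, where the filter lay between 5.77 and 5.90. Tested genes were sorted into 10 equal bins by level. In the dimmest bin 35 genes were higher and 90 lower at unadjusted p under 0.05, and 54 of the 90 were olfactory receptors. In the second bin the counts were 32 higher and 63 lower, and in the third 38 higher and 30 lower. In every brighter bin more genes were higher than lower, down to 9 against 2 in the brightest. The lower 10th and 25th percentiles of the 1W arrays moved with this, since the 10th percentile lay between 4.24 and 4.26 in 1W, against 4.29 and 4.34 in Sal. How much of the receptor difference they carry was not tested. Without Sal 3, which had the highest 10th percentile, 41 receptors in place of 84 were lower at unadjusted p under 0.05.

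**Figure D4:**
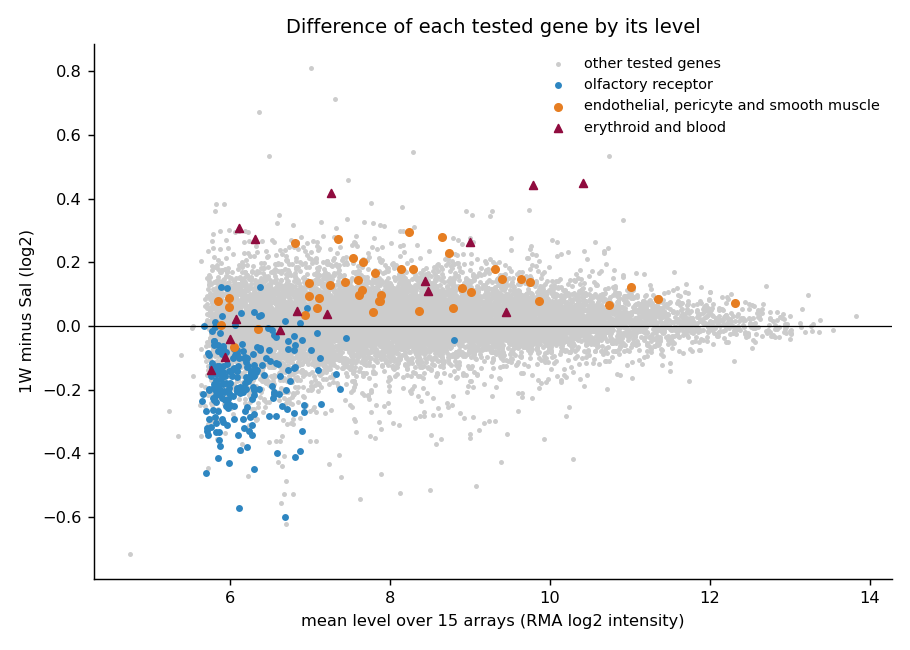
Difference 1W minus Sal (log2, y axis) against the mean level over 15 arrays (RMA log2 intensity, x axis) for the 11778 tested genes, with olfactory receptors in blue, vessel wall markers in orange and erythroid genes as dark triangles. The blue points gather below 0 at the dim end, and most orange points lie above 0 across the range of levels.

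Outside the receptor family, 162 genes were lower at unadjusted p under 0.05. Vwa3a, which codes for a protein with a von Willebrand A domain, had 8.10, 8.35 and 8.18 in 1W, against 8.73, 8.70 and 8.75 in Sal. Its Sal arrays agreed closely and its 1W arrays were all lower, a difference of -0.51 (SE 0.12, limma adjusted p = 0.558). Ston1, an endocytic adaptor, differed by -0.31 (SE 0.07), the sulfotransferase gene Sult1c2 by -0.49 (SE 0.18) and Zdhhc25, of the palmitoyltransferase family, by -0.27 (SE 0.05). C16h10orf53 differed by -0.53 (SE 0.19), with 1 Sal array at 7.42 well above the other two.

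Of 33 tested cell cycle and proliferation genes, of 42 measured, 21 were lower and 12 higher. In 5 (15.2%, against 3.25% of all tested genes) every 1W array lay below every Sal array, and 4 (12.1%, against 2.09%) were lower at unadjusted p under 0.05. The median difference was -0.03, and without Sal 1 it was 0.01, on the other side of 0. The median level of the list was 6.65, and dim genes were lower more often, many of them olfactory receptors. In the level bin from 6.22 to 6.72, of 1178 genes, 63 were lower and 32 higher at unadjusted p under 0.05. There 75 genes lay below without overlap and 44 above. In the dimmest bin, also of 1178 genes, these counts were 90, 35, 106 and 63. Olfactory receptors made up 22 of the 63 and 54 of the 90. How far the list differs from other genes of like level was not tested. Dcx, doublecortin, a microtubule protein of migrating young neurons, had 8.53, 8.57 and 8.32 in 1W, against 8.74, 8.82 and 8.92 in Sal. The arrays did not overlap, and the difference was -0.36 (SE 0.11, limma adjusted p = 0.932). Nusap1, a spindle protein, differed by -0.22 (SE 0.05), Mcm5, of the replication helicase, by -0.19 (SE 0.07) and the kinase gene Cdk6 by -0.15 (SE 0.07). Cdkn1c, a cyclin-dependent kinase inhibitor, was higher by 0.23 (SE 0.09).

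Immediate early genes, which neurons switch on within minutes of activity, showed no common direction. Of 52 genes, 22 were higher and 30 lower in 1W, with a median difference of -0.01 (-0.10 to 0.04 when 1 array was left out). At unadjusted p under 0.05, 2 were higher (3.85%, against 2.78% of all tested genes) and 3 lower (5.77%, against 2.09%). Fos had 7.03, 7.26 and 7.28 in 1W, against 7.40, 7.43 and 7.73 in Sal. The arrays did not overlap, though 7.28 in 1W lay near 7.40 in Sal, and the difference was -0.33 (SE 0.15, limma adjusted p = 0.999). Nfil3, a transcriptional repressor that is also tied to the clock, had 7.29, 7.40 and 7.32 in 1W, against 7.49, 7.52 and 7.62 in Sal, a difference of -0.20 (SE 0.08). Nr4a1, Arc and Egr1 differed by -0.43 (SE 0.24), -0.27 (SE 0.26) and -0.17 (SE 0.15), each with overlapping arrays, and Sal 3 was the highest of the 6 arrays for all 3 of them. Without Sal 3 they differed by -0.18, -0.03 and -0.03, and without Sal 1 by -0.68, -0.57 and -0.35. The score of the whole list was -0.17, -0.02 and -0.16 in 1W, against -0.28, -0.02 and 0.10 in Sal. Klf2, a flow-responsive factor of endothelium, was higher by 0.14 (SE 0.06). Of 19 clock genes 9 were higher and 10 lower, and Per2, a core repressor, differed by -0.15 (SE 0.07), with overlap.

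Genes of spiny neurons and of their dopamine input differed little. Of 26 medium spiny neuron markers 24 were higher and 2 lower, but 0 had an unadjusted p under 0.05 or arrays that did not overlap, and their median difference was 0.07. That median turned sign with single arrays, at -0.05 without 1W 3, -0.0015 without Sal 3 and 0.20 without 1W 1. The score of that list spread from -0.23 to 0.26 in 1W and from -0.14 to 0.08 in Sal. The dopamine receptor gene Drd1 had 9.68, 10.11 and 10.31 in 1W, against 10.03, 10.16 and 9.81 in Sal, a difference of 0.03 with a 95% interval from -0.34 to 0.40. Drd2 had 11.33, 11.77 and 11.88 in 1W, against 11.53, 11.71 and 11.47 in Sal, a difference of 0.09 (interval -0.24 to 0.42). The arrays of both genes were mixed, and both intervals reach well to either side of 0. Of 42 genes of dopamine and cAMP signalling, 30 were higher and 12 lower, with 0 at unadjusted p under 0.05 in either direction.

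Neuropeptide genes behaved likewise. Pdyn, which codes for dynorphin, had 10.28, 10.77 and 11.11 in 1W, against 10.51, 10.59 and 10.26 in Sal, a difference of 0.26 (interval -0.13 to 0.66). Penk, for enkephalin, differed by 0.13 (interval -0.08 to 0.34) and Cartpt, for the CART peptide, by 0.01 (interval -0.42 to 0.44). Over 39 tested neuropeptide and receptor genes, 21 were higher and 18 lower. At unadjusted p under 0.05, 1 was higher and 1 lower (2.56% each, against 2.78% and 2.09% of all tested genes). Npy1r, a neuropeptide Y receptor, had 6.74, 6.53 and 6.63 in 1W, against 6.80, 6.78 and 7.14 in Sal, a difference of -0.27 (SE 0.09), and Oxt, oxytocin, was higher by 0.32 (SE 0.14). Among 7 cholinergic interneuron markers the median difference was 0.35, with 6 higher, and it was 0.12 without Sal 3, 0.21 without 1W 1 and 0.53 without Sal 1. Slc18a3, the vesicular acetylcholine transporter, had 8.86, 8.27 and 8.64 in 1W, against 8.50, 8.07 and 7.55 in Sal, a difference of 0.55 (SE 0.23), and the arrays overlapped.

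Genes of glutamate and GABA receptors had 0 members at unadjusted p under 0.05, with intervals of differing width. Gria1, an AMPA receptor subunit, had 11.16, 11.34 and 11.37 in 1W, against 11.30, 11.41 and 11.33 in Sal, a difference of -0.06 (interval -0.18 to 0.06). Gria2, the subunit that blocks calcium entry, differed by -0.08 (interval -0.18 to 0.03). Grm5, the metabotropic receptor, differed by -0.03 (interval -0.21 to 0.15) and its scaffold partner Homer1 by 0.03 (interval -0.17 to 0.22). Among GABA genes the interval ran from -0.23 to 0.03 for the receptor subunit Gabrb1, at -0.10, and from -0.26 to 1.03 for the subunit Gabre, at 0.38. In 26 ionotropic receptor genes, 35 metabotropic receptor and scaffold genes, 20 GABA genes and 50 potassium channel genes, 0 had an unadjusted p under 0.05. The same count was 0 for 39 tested DNA methylation and histone enzymes, 29 neurotrophin and growth factor genes and 23 endocannabinoid and serotonin genes. Bdnf differed by -0.11 (interval -0.43 to 0.21), and Cdk5, a neuronal kinase studied after cocaine, by -0.04 (interval -0.16 to 0.09).

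Myelin genes leaned higher without separating. All 28 oligodendrocyte markers had positive differences, with a median of 0.10, and 4 (14.3%, against 2.78% of all tested genes) had an unadjusted p under 0.05, but 0 had arrays that did not overlap. The list's score was 0.23, 0.17 and -0.01 in 1W, against 0.15, -0.02 and -0.07 in Sal, so 1W 3 and Sal 1 crossed. Without 1W 3 the number at unadjusted p under 0.05 was 16, without Sal 1 it was 11, and without Sal 3 it was 0. Qdpr, a pteridine reductase abundant in these cells, was higher by 0.23 (SE 0.10) and Opalin, a myelin paranode protein, by 0.21 (SE 0.10). Astrocyte markers had 19 of 24 higher and a median of 0.02 (-0.0077 to 0.08 when 1 array was left out). Of 68 oxidative phosphorylation genes 57 were higher and of 69 ribosomal protein genes 55, with medians of 0.03 and 0.03. At unadjusted p under 0.05, 1 (1.47%) and 2 (2.9%) were higher, against 2.78% of all tested genes.

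The remaining lists held few genes apart from the rest. Oligodendrocyte precursor markers had 12 of 14 higher, and Matn4, a matrilin of the matrix, was higher by 0.10 (SE 0.04). Markers of GABAergic interneurons had 12 of 14 higher and 0 at unadjusted p under 0.05. Choroid plexus and ependymal markers were split, 8 higher and 9 lower of 17 tested, and cortical projection neuron markers 8 higher and 11 lower of 19, again with 0. Of 39 tested hypoxia and angiogenesis genes 28 were higher. In 4 (10.3%, against 4.84% of all tested genes) every 1W array lay above every Sal array, and in 3 (7.69%, against 3.25%) below. Among the 4 was Apln, the ligand of the apelin receptor, at 0.21 (SE 0.10). Of 46 axon guidance and extracellular matrix genes 29 were higher, and in 5 (10.9%, against 4.84% of all tested genes) every 1W array lay above every Sal array, with Sema5a, a semaphorin, at 0.15 (SE 0.06). Cholesterol and fatty acid synthesis genes, 29 in number, had 0 at unadjusted p under 0.05 and a median difference of 0.01.

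The other cocaine groups were set against the same 3 Sal arrays, so their differences share those arrays and are only listed side by side. For the vessel gene Esam the differences from Sal were 0.28 in 1W, 0.34 in 1C, 0.11 in 30W and 0.10 in 30C. Alas2 differed from Sal by 0.42 in 1W and 0.45 in 1C, with 0.06 in 30W and -0.01 in 30C, and Hbb by 0.45, 0.52, -0.02 and 0.13 in the same order. Cd180 was above Sal in 1W (0.32) and 1C (0.07) and below it in 30W (-0.19) and 30C (-0.25). Lrg1 was higher than Sal in all 4 groups, by 0.71 in 1W, 0.97 in 1C, 0.93 in 30W and 0.74 in 30C. Fos was below Sal in 1W (-0.33), with 0.05 in 1C, 0.01 in 30W and 0.50 in 30C. Over the 222 tested olfactory receptors the median difference from Sal was -0.16 in 1W, -0.13 in 1C, -0.07 in 30W and -0.04 in 30C. These receptors were 51 of the 157 genes lower in 1C at unadjusted p under 0.05, and 40 of the 395 lower in 30W. At unadjusted p under 0.05, 247 genes were higher and 157 lower in 1C than in Sal, 500 higher and 395 lower in 30W, and 346 higher and 250 lower in 30C, with 0 at adjusted p under 0.05 in each. Direct comparison with 1W in the same fit also gave 0 genes, with a smallest adjusted p of 0.717 for 1C minus 1W and of 0.115, for Cd180, for 30W minus 1W, and 474 and 1188 genes at unadjusted p under 0.05.

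**Figure D5:**
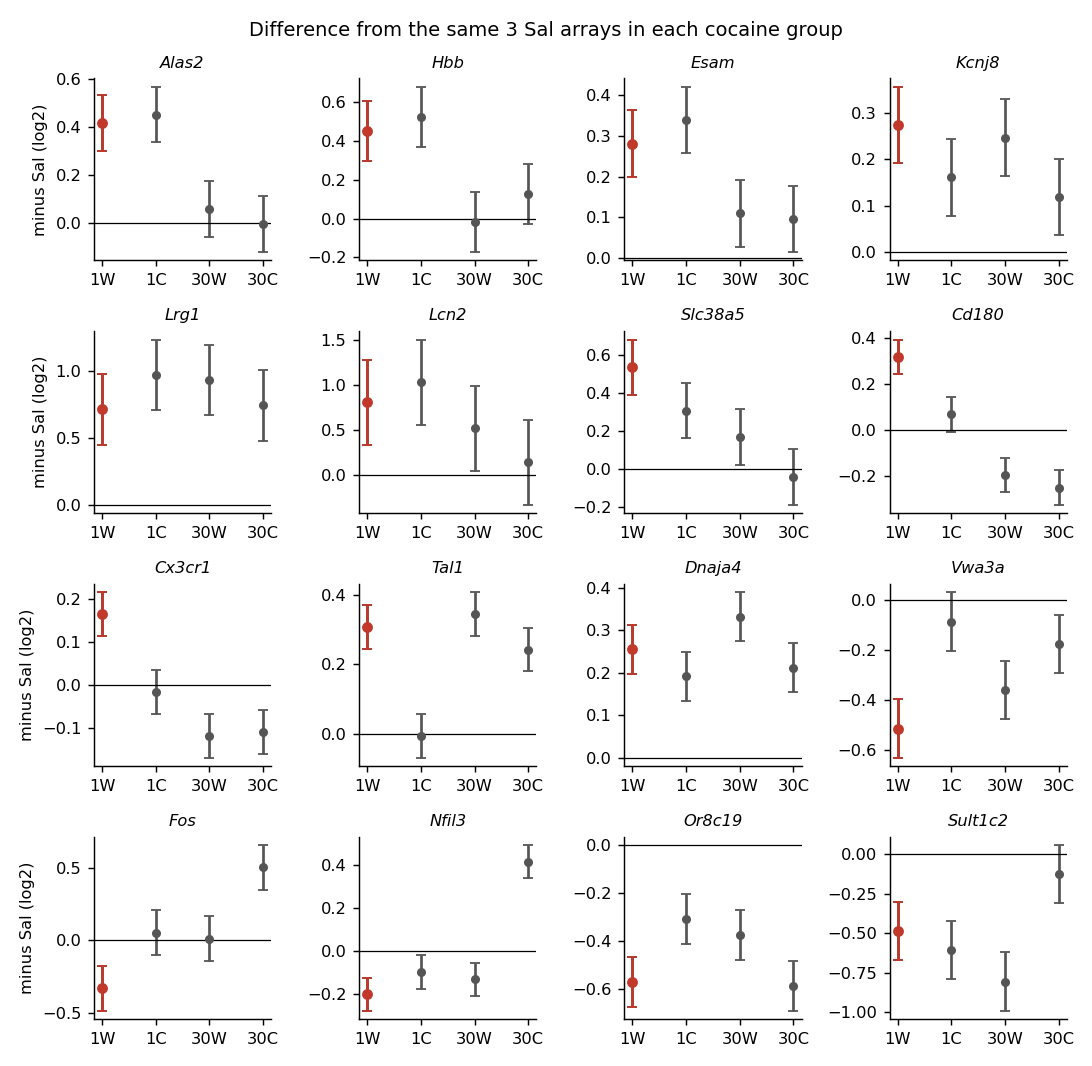
Difference from the 3 Sal arrays (log2, y axis, with its own range in each panel) with its SE for 16 genes in 1W (red), 1C, 30W and 30C (grey), 3 arrays each. Alas2 lies at 0.42 in 1W and 0.45 in 1C and near 0 in 30W and 30C, while Lrg1 lies between 0.71 and 0.97 in all 4 groups.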

How the data were processed

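The authors deposited 1 table of log2 expression values. Per the submitters' processing notes they used RMA, which corrects background, quantile-normalizes arrays and summarises probes, so overall signal had been equalised between arrays. Neither a version nor a genome build was given in the sources used here. Identifiers are of a whole-transcript type, although the protocol in the labels names a kit for 3' arrays.

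Of 28826 probe sets, 15209 had 1 gene symbol in the platform annotation, 306 had several and 13311 had none. Entrez IDs linked 15178 of the first to RefSeq names. Each of 14497 genes was represented by its brightest probe set over 15 arrays (494 had more than 1), and 11778 lay above the array's 30th percentile on at least 3 arrays. No gene passed through only the 3 1W or only the 3 Sal arrays.

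A linear model over the 15 arrays with group as its term was fitted with limma 3.58.1 in R 4.3.3 (residual degrees of freedom 10, prior 3.44). Tests were two-sided, with Benjamini-Hochberg adjustment over the 11778 genes. The fitting steps were tested on simulated data. Arrays carry no counts, so precision is limited by their number. The 36 gene lists, the named genes and the comparison were chosen with earlier results of these data known. Named were the 15 genes per direction with the smallest p and the 10 with the largest difference among those without overlap, the first 4 members by p of each list, and fixed genes studied after cocaine. Fewer are described. Other genes named (Cldn5, Epor, Fkbp5 and further list members) were added as examples after their values were seen. Normalization, filter, probe set, variance model, arrays fitted, cortical markers, replicate block and left-out arrays were varied.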

Additional observations from a re-analysis of the deposited data

How the results depend on the processing

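No gene reached an adjusted p under 0.05 in any of the 27 alternative settings, nor at 0.10 in the main one, and the smallest adjusted p ranged from 0.0509 (no filter on dim genes, Or7a38c) to 0.558. Counts at unadjusted p under 0.05 did depend on the settings. Array weights gave 493 higher and 407 lower genes, against 327 and 246. With no filter 553 genes were lower, and with the filter at the 50th percentile 95, since dim genes enter or leave. Leaving out 1 array gave 157 (without Sal 3) to 572 (without Sal 1) higher genes and 202 to 292 lower ones. Same-numbered arrays of 1W and Sal did not deviate together, with correlations of -0.03, -0.04 and -0.26. With 3 arrays per group this cannot show whether the numbers mark a pairing, and the main fit used none. The replicate block gave 337 higher and 256 lower genes and 0 at adjusted p under 0.05.
Named genes near 0 changed sign when 1 array was left out. The ranges were -0.27 to 0.0102 for Bdnf, -0.11 to 0.21 for Cartpt, -0.11 to 0.21 for Drd1 and -0.0157 to 0.26 for Drd2. They were -0.10 to 0.0048 for Gria1, -0.10 to 0.0613 for Grm5 and -0.0695 to 0.13 for Homer1. Slc17a7 was not near 0, at 0.53 (SE 1.03), but it changed sign too, with -1.0025 without Sal 1 and 1.43 without Sal 3. Cartpt was at -0.0011 after a further quantile normalization. Median centring and that normalization left 64.7% and 60.5% of the genes at unadjusted p under 0.05 on the higher side, against 57.1%. Of the 36 list medians, 20 turned sign when 1 of the 1W or Sal arrays was left out. The medians of the other lists did not, the endothelial, mural, microglial, erythroid and oligodendrocyte ones among them. Lists with small medians were also among these, such as glucocorticoid-responsive genes at 0.02. Counts of list members without single arrays were added after seeing the data, as was the cortical marker score as a covariate for them, which kept each such count within 1.5 times.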

Other observations

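Probe sets with no symbol or with several were fitted apart. Of 13617 such probe sets, 8483 passed the filter and 0 reached an adjusted p under 0.05 with limma. At unadjusted p under 0.05, 184 were higher and 405 lower in 1W. The smallest adjusted p was 0.0787, for probe set 10700068, which has no gene name here. It had 5.99, 6.09 and 6.02 in 1W, against 6.70, 7.04 and 6.74 in Sal, a difference of -0.79 (SE 0.11).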
